A study of Homo sapiens with 24 samples.

Results

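The effect of lowering one ETS transcription factor was set against the effect of lowering another, in prostate cancer cells that had received no androgen. The ETV1 effect is the change from LNCaP-shControl-EtOH to LNCaP-shETV1-EtOH, and the ERG effect is the change from VCaP-siControl-EtOH to VCaP-siERG-EtOH. The quantity described is the ETV1 effect minus the ERG effect, gene by gene, in log2 units. A positive difference means that the gene stood higher, relative to its own control, after ETV1 loss than after ERG loss. The rule takes 12 of the 24 arrays of the study, 3 in each of 4 groups given EtOH (ethanol, the vehicle). Levels were never compared between the cell lines. VCaP is an established prostate cancer line that carries the TMPRSS2-ERG fusion, and ERG was lowered there with siRNA (siERG). LNCaP is an established prostate cancer line that overexpresses ETV1 from a rearranged locus, and ETV1 was lowered there with a short hairpin RNA (shETV1). Every culture, controls included, had 24 h of RNA interference, 2 days in hormone-depleted medium and then 16 h with EtOH or with 10 nM DHT (dihydrotestosterone, an androgen). The labels call the LNCaP control shControl in the titles and siControl elsewhere. Each line had 1 targeting reagent and 1 control reagent by name, so the line, the type of reagent and the factor targeted differ together and cannot be told apart. The replicates, A, B and C, are stated to be biological, and p-values reflect the spread between them.

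ETS factors share a DNA-binding domain that recognises a GGAA core, and fusions with androgen-responsive genes place ERG or ETV1 under the control of the androgen receptor in many prostate tumours. ERG belongs to the subfamily of FLI1, and ETV1 to the PEA3 subfamily with ETV4 and ETV5. The androgen receptor itself is a hormone-dependent transcription factor that drives secretory genes such as KLK3, which encodes prostate-specific antigen.

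Both knockdowns were seen in the targeted gene. ERG intensity in VCaP was 1029, 1115 and 950.2 in the siControl arrays and 569.7, 592 and 567 in the siERG arrays on its brightest probe set, 44.1% lower on average, and its 4 probe sets were 44.1% to 51.1% lower. ERG did not pass the signal filter in LNCaP, so it has an ERG effect only, of -0.82 ± 0.06 (SE, adjusted p 1.83e-05). ETV1 intensity in LNCaP was 1215, 1201 and 1029.8 in shControl and 769, 714 and 752 in shETV1, and its 5 probe sets were 30.9% to 37.6% lower. The same probe set read 460.5, 707 and 537 in VCaP siControl and 890.3, 1024 and 1046 in siERG. That gave a difference for ETV1 of -1.41 ± 0.42 (SE, adjusted p 0.0425), which missed the threshold in 21 of 41 alternative settings. In VCaP this probe set was 73.7% higher after siERG and a second, dimmer one was 42.8% higher, both without overlap, while the other 3 ETV1 probe sets were 0.871% to 9.22% higher with overlapping groups. Of 10 luminal prostate markers, 10 lay above the array median in all 3 arrays of each VCaP EtOH group, and 9 and 8 did in LNCaP shControl and shETV1. The summed signal of 4 leukocyte markers was 451 to 516 in VCaP siControl and 219 to 319 in siERG (LYZ, one of the 4, averaged 348 and 142), and 125 to 140.0 and 99.7 to 144 in LNCaP shControl and shETV1. In VCaP siControl and siERG the sums were 425 to 470.2 and 434 to 537 for 6 fibroblast markers and 156 to 193 and 135 to 161 for 4 endothelial markers, out of 32611 to 34037 and 30586 to 31249 for the 10 luminal ones. For 7 basal markers they were 2755 to 3018 and 2349 to 2646. In LNCaP shControl and shETV1 the basal sums were 1169 to 1207 and 997 to 1012, and the fibroblast sums 608 to 642 and 591 to 654. The endothelial sums there were 167 to 210.15 and 210.18 to 237, and the luminal sums 25061 to 26374 and 23761 to 24339. The part of other cell types in the results was not tested, and in bulk cultures fewer cells that express a gene and less RNA per cell cannot be told apart. The ratio of 3' to 5' GAPDH probe sets, a sign of RNA integrity, was 1.05 ± 0.01 (SD, n = 3) in VCaP siControl and 1.09 ± 0.02 in siERG (exact permutation p 0.1, the smallest that 3 against 3 arrays allow). It was 1.11 ± 0.03 in LNCaP shControl and 1.07 ± 0.02 in shETV1 (exact permutation p 0.2). The ratio moved in opposite directions in the lines, and its part in the differences was not tested beyond the values with it as a covariate given beside the results.

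**Figure D1:**
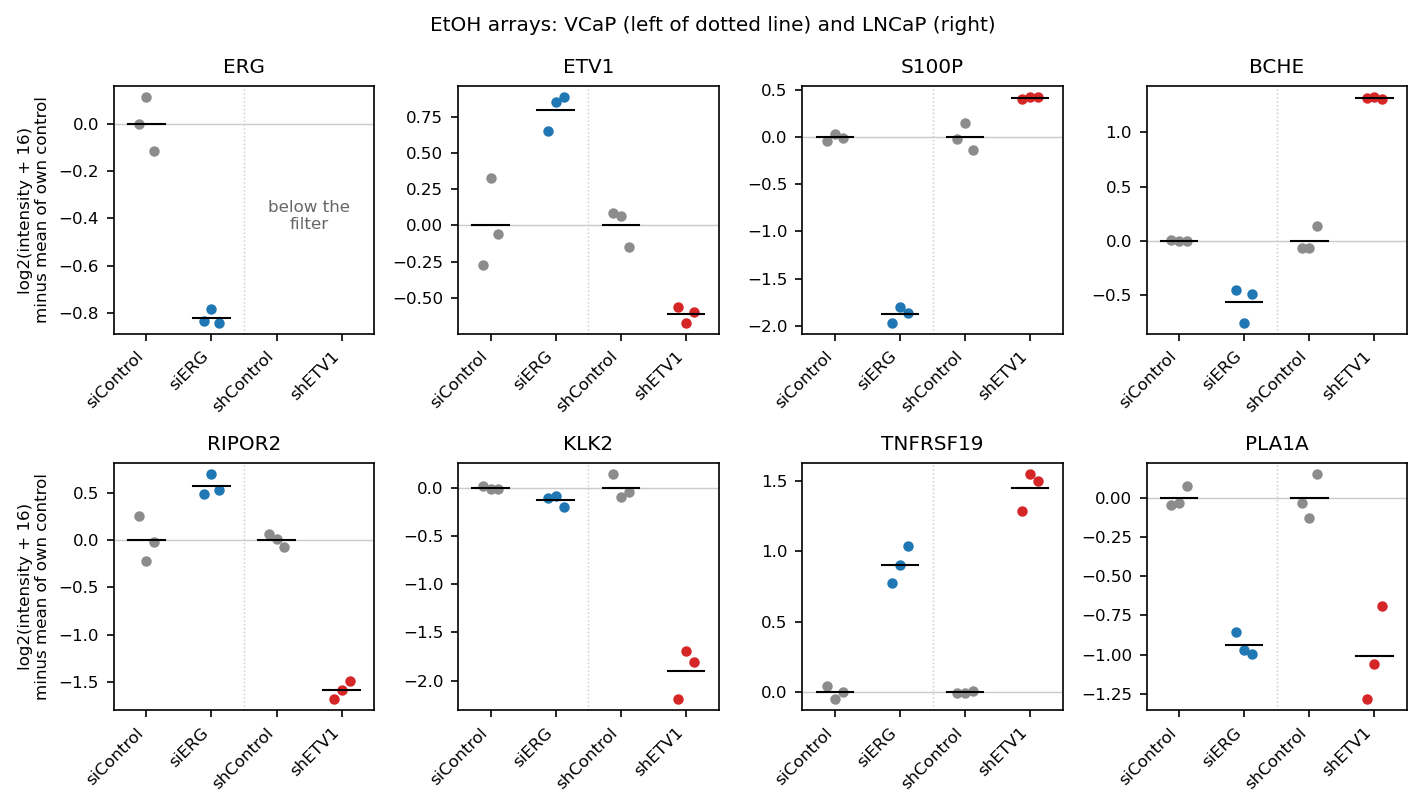
Each point is 1 EtOH array, drawn as log2(intensity + 16) minus the mean of the 3 control arrays of its own line, and bars are group means. ERG and ETV1 fell in the line where each was targeted, S100P and BCHE fell after siERG and rose after shETV1, RIPOR2 did the reverse, KLK2 fell after shETV1, and TNFRSF19 and PLA1A moved the same way in both lines.

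The effects of the 2 knockdowns without androgen were uncorrelated across genes. Across 12305 genes measured in both lines, the Pearson correlation of the ERG effect with the ETV1 effect was 0.02 and the Spearman correlation was -0.01. These are descriptions across genes, which are not independent replicates, and the 2 effects share no arrays. The ERG effects were spread more widely, with an SD of 0.189 log2 units against 0.154 for the ETV1 effects. The limma test of the difference called 1176 genes at an adjusted p below 0.05, which is 9.56% of those tested. Of these, 512 had the higher value after ETV1 loss (4.16%) and 664 the lower (5.4%). This split depends on scaling: with every array centred on its median, 1189 were higher and 416 lower, and the share of calls that were higher moved from 43.5% to 74.1%. With the GAPDH ratio as a covariate the calls numbered 93 higher and 182 lower. Only 17 genes differed by at least 1 log2 unit upwards and 31 downwards, and the median standard error of a difference was 0.102. Of the 12305 genes, 141 passed the filter in a line only through its DHT arrays, and 5 of them are among the higher and 12 among the lower differences.

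Most differences came from 1 of the knockdowns. siERG changed 1288 genes (10.5%), of which 633 rose (5.14%) and 655 fell (5.32%). shETV1 changed 557 genes (4.53%), of which 165 rose (1.34%) and 392 fell (3.19%). With the GAPDH ratio as a covariate, siERG changed 209 genes and shETV1 148. Of the 1176 genes with a difference, 561 were changed by siERG alone, 198 by shETV1 alone and 330 by neither knockdown on its own. The 2 knockdowns changed 147 genes in common, which is 11.4% of the siERG genes and 26.4% of the shETV1 genes. Of those, 67 moved in opposite directions (0.544% of genes tested) and 80 in the same direction (0.65%). Among the opposite genes, 53 rose after siERG and fell after shETV1, and 14 did the reverse. Among the genes that moved alike, 58 fell and 22 rose. With the GAPDH ratio as a covariate, 6 were opposite and 10 moved alike.

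**Figure D2:**
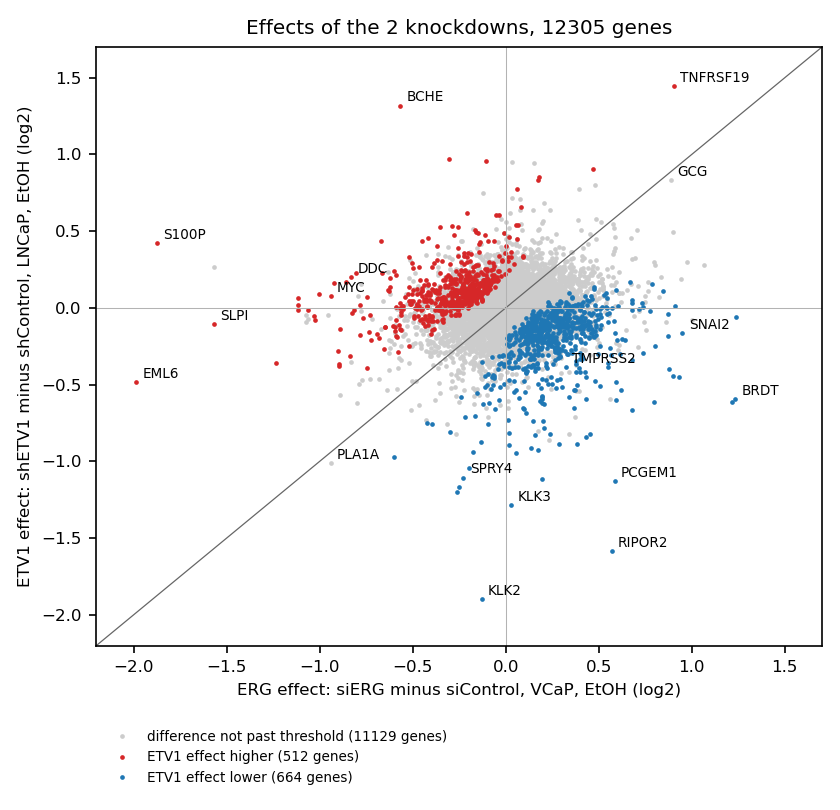
Each point is 1 of 12305 genes, with the ERG effect in VCaP on the horizontal axis and the ETV1 effect in LNCaP on the vertical axis, both in log2 units with EtOH. Red points (512) and blue points (664) have a difference past the threshold, and the grey line marks equal effects.

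S100P, a calcium-binding protein of the S100 family, had the highest difference of all genes tested. Its intensity in VCaP was 327, 345 and 334 in siControl and 73.7, 85 and 80.5 in siERG. In LNCaP it was 316, 357 and 291 in shControl and 432, 436 and 436 in shETV1. No control array overlapped a knockdown array in either line, and the gene moved down in one and up in the other. S100P fell by 1.88 ± 0.11 (SE, adjusted p 8.15e-06) after siERG and rose by 0.42 ± 0.067 (SE, adjusted p 0.005) after shETV1. The difference was 2.30 log2 units (95% interval 2.02 to 2.57, adjusted p 5.66e-09).

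RIPOR2, a regulator of small GTPase signalling, had the lowest difference and the reverse pattern. Its intensity was 157, 108 and 127 in siControl and 187, 219.6 and 193 in siERG in VCaP. In LNCaP it was 265, 255 and 241 in shControl and 68, 74.1 and 79.7 in shETV1. The VCaP groups did not overlap but varied more than those of S100P, and the LNCaP groups lay far apart. RIPOR2 rose by 0.57 ± 0.16 (SE, adjusted p 0.0458) after siERG and fell by 1.59 ± 0.081 (SE, adjusted p 1.66e-06) after shETV1. The difference was -2.16 (95% interval -2.55 to -1.77, adjusted p 4.42e-07), and the second RIPOR2 probe set gave -1.10.

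The promoters of the genes at these extremes, and of TNFRSF19 and PLA1A, which both knockdowns moved most strongly in one direction, are shown because ERG and ETV1 recognise the same core. Each sequence runs from 250 bases before to 50 bases after the annotated gene start on the gene's own strand, from RefSeq's GRCh38.p14, with capitals marking every GGAA and its reverse complement TTCC. The regions are chr4:6693628-6693927 on the plus strand, chr6:24935911-24936210 on the minus strand, chr13:23570162-23570461 on the plus strand and chr3:119597635-119597934 on the plus strand.
S100P: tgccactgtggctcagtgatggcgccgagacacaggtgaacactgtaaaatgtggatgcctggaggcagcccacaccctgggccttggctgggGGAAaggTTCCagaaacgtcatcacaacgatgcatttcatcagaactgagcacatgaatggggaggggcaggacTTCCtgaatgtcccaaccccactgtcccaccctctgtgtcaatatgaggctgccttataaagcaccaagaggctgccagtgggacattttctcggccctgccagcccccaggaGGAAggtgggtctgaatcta
RIPOR2: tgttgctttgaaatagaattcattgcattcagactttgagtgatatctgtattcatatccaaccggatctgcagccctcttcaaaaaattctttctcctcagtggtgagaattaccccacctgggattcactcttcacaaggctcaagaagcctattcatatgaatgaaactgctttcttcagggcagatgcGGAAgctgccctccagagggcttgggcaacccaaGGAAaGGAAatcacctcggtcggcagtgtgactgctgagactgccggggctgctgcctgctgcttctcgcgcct
TNFRSF19: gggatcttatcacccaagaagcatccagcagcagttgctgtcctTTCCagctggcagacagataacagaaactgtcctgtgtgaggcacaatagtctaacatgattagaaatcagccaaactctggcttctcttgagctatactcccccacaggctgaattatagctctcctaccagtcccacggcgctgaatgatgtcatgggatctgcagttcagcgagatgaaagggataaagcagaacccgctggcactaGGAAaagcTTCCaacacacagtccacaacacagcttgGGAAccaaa
PLA1A: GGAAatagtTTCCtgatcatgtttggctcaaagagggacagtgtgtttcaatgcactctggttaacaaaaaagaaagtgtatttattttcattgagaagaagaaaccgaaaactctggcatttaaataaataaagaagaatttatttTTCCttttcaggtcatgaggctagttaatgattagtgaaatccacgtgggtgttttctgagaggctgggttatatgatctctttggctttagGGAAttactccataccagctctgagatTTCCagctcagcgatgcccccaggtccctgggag
S100P held 4 such cores, RIPOR2 3, TNFRSF19 4 and PLA1A 5, against a median of 3 over all promoters of the table. The median was also 3 among genes with a higher difference and among genes with a lower one. Whether the number of cores differs between these groups was not tested.

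Longer ETS words were found in a minority of these windows. The words CCGGAAGT and CAGGAAGT were searched on both strands in 10018 promoters of tested genes, and 11.6% held at least 1 of them, as did 7.41% of all 27305 promoters. The share was 9.22% of genes with a higher difference and 7.16% of genes with a lower one. It was 3 of 58 promoters (5.17%) of genes moved in opposite directions, 3 of 47 (6.38%) of those that fell after both knockdowns and 0 of 19 of those that rose after both. S100P held CAGGAAGT read on the reverse strand, and the other printed promoters held neither word. A match is a description of letters, and binding was not measured here.

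The 15 highest differences were mainly genes that siERG lowered. For BCHE, the butyrylcholinesterase that hydrolyses choline esters, the ETV1 effect was the larger part. Its intensity was 431, 427 and 428 in siControl and 309, 247 and 300.1 in siERG in VCaP. In LNCaP it was 211, 212 and 245 in shControl and 577, 579.8 and 575 in shETV1. It fell by 0.57 ± 0.094 (SE, adjusted p 0.00431) after siERG and rose by 1.32 ± 0.058 (SE, adjusted p 1.26e-06) after shETV1, and no groups overlapped. The difference was 1.88 ± 0.11 (SE, adjusted p 6.65e-09). EML6, a microtubule-associated protein of the EMAP family, fell by 1.99 after siERG and fell by 0.48 after shETV1. Its VCaP arrays read 1362, 1352 and 1171 in siControl and 317, 280.1 and 348 in siERG, and the difference was 1.50 ± 0.15 (SE, adjusted p 2.06e-06). SLPI, a secreted inhibitor of serine proteases, read 691, 645 and 782 in siControl and 224, 214 and 243 in siERG in VCaP, a fall of 1.57 ± 0.082 (SE, adjusted p 6.8e-06). Its ETV1 effect of -0.10 did not pass the test, and the difference was 1.46 ± 0.16 (SE, adjusted p 5e-06).

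HLA-DMB, ADRA2A, FZD4 and TSPAN1 fell after siERG with no ETV1 effect past the test. HLA-DMB, which loads peptides onto MHC class II, read 1063, 1022 and 1092 in siControl and 507, 473 and 462 in siERG in VCaP. In LNCaP HLA-DMB read 419, 423 and 387 in shControl and 409, 447 and 429.9 in shETV1. Its difference was 1.18 ± 0.09 (SE, adjusted p 8.22e-08). ADRA2A, the alpha-2A adrenergic receptor, read 2146, 2023 and 1969 in siControl and 970.2, 836 and 1009 in siERG in VCaP, and its difference was 1.13 ± 0.087 (SE, adjusted p 8.73e-08). FZD4, a Frizzled receptor for Wnt ligands and norrin, read 2000.4, 2086 and 1907 in siControl and 967, 944 and 836 in siERG, with a difference of 1.10 ± 0.15 (SE, adjusted p 0.000117). TSPAN1, a tetraspanin, had a difference of 1.10, which missed the threshold with the GAPDH ratio as a covariate. Its family member TSPAN8 fell after siERG by 0.67 and rose after shETV1 by 0.44, for a difference of 1.11 ± 0.14 (SE, adjusted p 5.08e-05).

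SOX9, a transcription factor of the SRY-box family, read 269, 246 and 239.7 in siControl and 124, 123 and 128 in siERG in VCaP. In LNCaP SOX9 read 152, 182 and 144 in shControl and 167, 172 and 198 in shETV1. It fell by 0.92 ± 0.069 (SE, adjusted p 4.77e-05) after siERG, and its difference was 1.08 ± 0.12 (SE, adjusted p 7.35e-06). EPAS1, which encodes the hypoxia-inducible factor HIF-2alpha, had a difference of 1.05 that dropped to 0.21 and missed the threshold when its probe sets were averaged. DDC, the decarboxylase that makes dopamine and serotonin, fell by 0.83 after siERG and rose by 0.20 after shETV1, with a difference of 1.03 ± 0.074 (SE, adjusted p 4.9e-08). ANKRD29 and SLITRK3, a synaptic adhesion protein, had the larger part of their differences in LNCaP. ANKRD29 read 195, 208 and 232 in shControl and 427, 439 and 411 in shETV1 there, a rise of 0.96 ± 0.059 (SE, adjusted p 6.07e-06). SLITRK3 read 112, 107 and 118 in shControl and 229, 249.7 and 229 in shETV1, a rise of 0.97 ± 0.087 (SE, adjusted p 9.62e-05), and its difference of 1.28 missed the threshold with the GAPDH ratio as a covariate. PRAME, a cancer-testis antigen, had the last of the 15 places at 1.03 and missed the threshold in that same setting.

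Secreted kallikreins stood at the lower end. KLK3 read 2122, 1784 and 1859.5 in shControl and 724, 769 and 841 in shETV1 in LNCaP, with no overlap. In VCaP it read 3161, 3047 and 3181 in siControl and 3269, 3301 and 3009.8 in siERG. It fell by 1.29 ± 0.073 (SE, adjusted p 4.46e-06) after shETV1 and had an ERG effect of 0.028, which did not pass the test. The difference was -1.31 ± 0.099 (SE, adjusted p 7.07e-08). KLK2, the neighbouring kallikrein gene, read 258, 215 and 224 in shControl and 38.2, 60.6 and 54.7 in shETV1 in LNCaP. In VCaP it read 5685, 5546 and 5553 in siControl and 5211, 5278 and 4872 in siERG, an ERG effect of -0.13 that did not pass the test. It fell by 1.90 ± 0.11 (SE, adjusted p 4.53e-06) after shETV1, and its difference was -1.77 ± 0.13 (SE, adjusted p 4.85e-08). Of the 3 brighter KLK2 probe sets, 2 gave differences of -1.77 and -0.86 and the third gave 0.23, on a signal of 5.75 in LNCaP shControl, and kallikrein probe sets can share sequence. PCGEM1, a long noncoding RNA of prostate tissue, read 303, 328 and 298 in shControl and 145, 133 and 122 in shETV1 in LNCaP. In VCaP PCGEM1 read 172, 152 and 162 in siControl and 234, 263 and 254 in siERG. It rose after siERG by 0.59 ± 0.078 (SE, adjusted p 0.00124) and fell after shETV1 by 1.13 ± 0.068 (SE, adjusted p 5.89e-06), so its difference was -1.71.

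BRDT, a bromodomain protein normally made in the testis, joined PCGEM1 and RIPOR2 in rising after siERG and falling after shETV1. It read 91.3, 72.8 and 82.6 in siControl and 220.1, 196 and 228 in siERG in VCaP. In LNCaP BRDT read 187, 198 and 187 in shControl and 118, 106 and 141 in shETV1, and its difference was -1.83 ± 0.20 (SE, adjusted p 7.35e-06). HSPB8, a small heat shock protein, gave -1.34 on its brighter probe set and 0.088 on the other, so it depends on the probe set. NAP1L3, of the nucleosome assembly protein family, rose by 0.88 and fell by 0.40, for a difference of -1.28 ± 0.12 (SE, adjusted p 1.88e-06). KLHL13, an adaptor of a cullin ubiquitin ligase, rose after siERG from 84, 52.1 and 52.5 to 180.0, 149.6 and 173, and its difference was -1.30 ± 0.23 (SE, adjusted p 0.000992). The ubiquitin ligase RNF128 fell by 0.89 ± 0.091 (SE, adjusted p 0.000272) after shETV1, and PNMA2 fell by 0.82 ± 0.062 (SE, adjusted p 2.75e-05). Their ERG effects of 0.39 and 0.45 did not pass the test, although the PNMA2 arrays of VCaP, 86.5, 70.8 and 68.8 in siControl and 106, 107 and 113 in siERG, did not overlap.

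The other places held genes with wider spread or a single line's change. ETV1, the gene targeted in LNCaP, held 1 of these 15 places. It was lost in 21 of 41 settings, the GAPDH ratio as a covariate among them. WDR72 had a difference of -1.83 ± 0.46 (SE), and its VCaP siControl arrays alone ranged over 476, 874 and 730.3. It missed the threshold when probe sets were averaged and with the GAPDH ratio as a covariate. HTR2C, a serotonin receptor, read 42.1, 109 and 108 in siControl and 106, 189 and 219 in siERG in VCaP, where the groups overlapped, and its difference of -1.34 was lost in 14 alternative settings. IL15, a cytokine, fell in LNCaP from 133, 81.7 and 97.1 to 48, 37.4 and 31.4, and NPPC, the precursor of C-type natriuretic peptide, had a difference of -1.38. Both missed the threshold with the GAPDH ratio as a covariate. Of the 30 genes at the 2 ends, 20 stayed past the threshold in every alternative setting, and 8 missed it with that covariate.

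**Figure D3:**
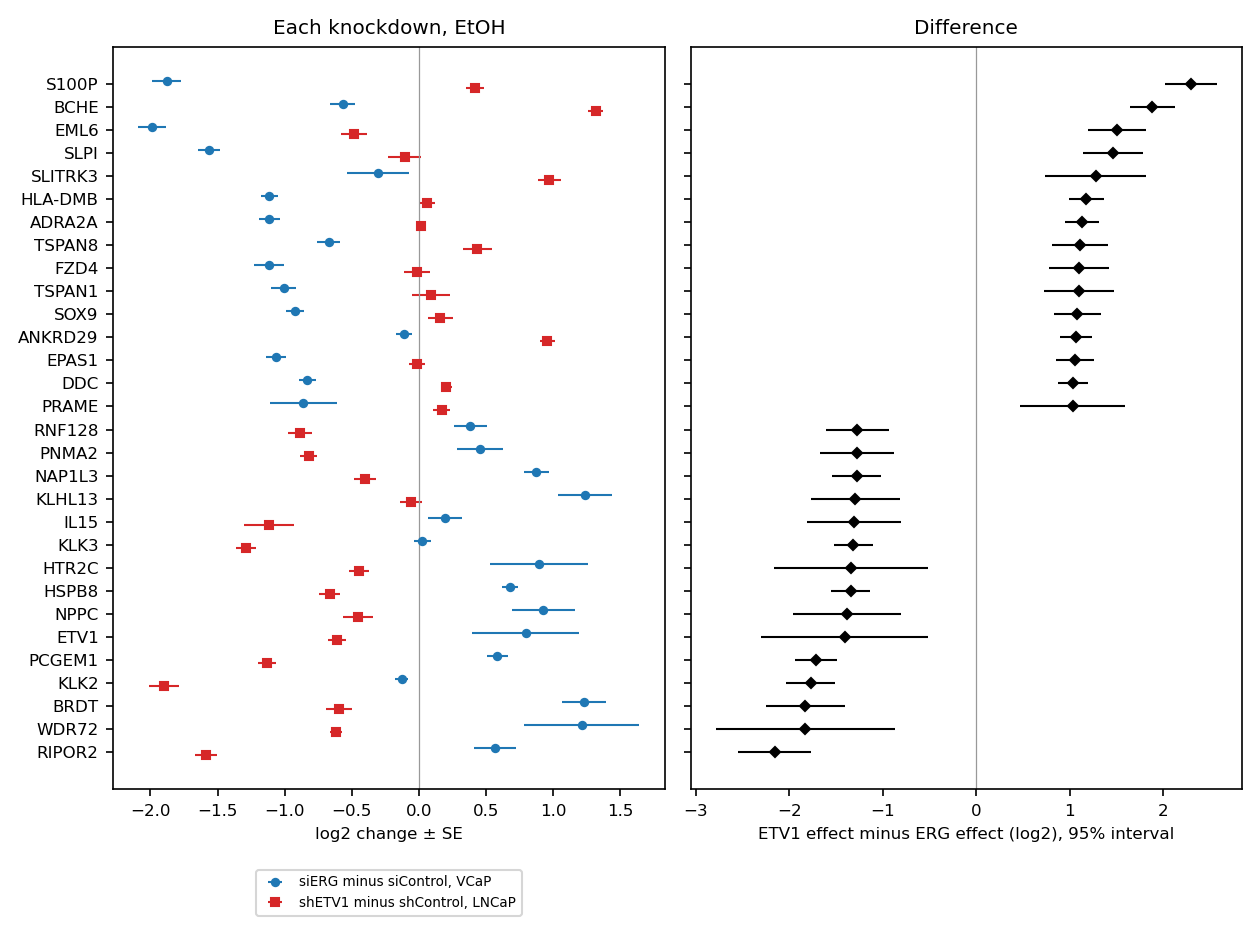
The left panel gives the ERG effect (blue circles) and the ETV1 effect (red squares) with standard errors for the 15 highest and 15 lowest differences, and the right panel gives the difference with its 95% interval, all in log2 units. Most genes in the upper part lie left of 0 after siERG, and most in the lower part lie left of 0 after shETV1.

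Genes moved in opposite directions by the 2 knockdowns were mostly raised by siERG and lowered by shETV1. Over all genes, too, shETV1 lowered more (392) than it raised (165), while siERG raised 633 and lowered 655. In the 53 genes of that kind, the difference ran from -2.16 to -0.40 with a median of -0.73. SERPINE2, a secreted inhibitor of thrombin and plasminogen activators, read 283, 269 and 305 in siControl and 410.3, 437 and 392 in siERG in VCaP. In LNCaP SERPINE2 read 185, 181 and 210.5 in shControl and 111, 142 and 138 in shETV1, changes of 0.51 after siERG and -0.51 after shETV1. MAP2, a microtubule protein of neurons, read 439, 450.0 and 385 in siControl and 564, 587 and 581 in siERG in VCaP. In LNCaP MAP2 read 228, 242 and 227 in shControl and 167, 138 and 142 in shETV1, changes of 0.43 after siERG and -0.59 after shETV1. Neither gene had overlapping groups in either line. PDLIM1, an actin-associated PDZ and LIM protein, changed by 0.48 after siERG and -0.48 after shETV1, and RNF182, a ubiquitin ligase, by 0.59 after siERG and -0.49 after shETV1. CHN1, an activator of Rac GTP hydrolysis, changed by 0.43 after siERG and -0.45 after shETV1, and CRISPLD1 by 0.43 after siERG and -0.84 after shETV1. In LNCaP with EtOH, CHN1 averaged 47.0 in shControl and 30.2 in shETV1, and CRISPLD1 77.3 and 36.1. LNCaP array medians were 42.7 to 44.8. Both genes passed the LNCaP filter only through shControl arrays, so the filter favoured a fall after shETV1 for them. TMPRSS2, the serine protease whose promoter drives ERG in VCaP, was also of this kind. It read 1757, 1737 and 1674 in siControl and 2087, 2343 and 2052 in siERG in VCaP. In LNCaP TMPRSS2 read 728, 796 and 693 in shControl and 552, 572 and 561 in shETV1. Its difference was -0.71 ± 0.084 (SE, adjusted p 2.07e-05), and its 3 further probe sets also gave negative values, -0.29 on the dimmest.

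The 14 genes lowered by siERG and raised by shETV1 included S100P, BCHE, TSPAN8 and DDC. Their differences ran from 0.32 to 2.30 with a median of 0.86. PLCB4, a phospholipase C, read 1517, 1593 and 1369.5 in siControl and 1098, 1084 and 1078 in siERG in VCaP. In LNCaP PLCB4 read 1049.5, 1049.8 and 1061 in shControl and 1428, 1479 and 1380.4 in shETV1, and its difference was 0.88 ± 0.072 (SE, adjusted p 1.74e-07). FZD3, a Frizzled receptor, changed by -0.52 after siERG and 0.33 after shETV1. RILPL2 changed by -0.35 after siERG and 0.52 after shETV1, RIMS1, a protein of the presynaptic active zone, by -0.37 after siERG and 0.41 after shETV1, and ARHGAP28 by -0.37 after siERG and 0.31 after shETV1. NAV3 had a difference of 0.82 that dropped to 0.21 when its probe sets were averaged.

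Genes raised by both knockdowns were led by TNFRSF19, a receptor of the tumour necrosis factor family. It read 173, 161 and 168 in siControl and 298, 326 and 359.7 in siERG in VCaP. In LNCaP TNFRSF19 read 246, 245 and 248 in shControl and 624, 752 and 726 in shETV1, with no overlap. It rose by 0.90 ± 0.059 (SE, adjusted p 1.71e-05) after siERG and by 1.44 ± 0.063 (SE, adjusted p 1.26e-06) after shETV1. The rise was larger after shETV1, with a difference of 0.54 ± 0.086 (SE, adjusted p 0.000413), which missed the threshold when its probe sets were averaged. GCG, which encodes proglucagon, rose in VCaP from 366, 334 and 296 to 595, 574 and 718 and in LNCaP from 505, 446 and 476 to 885, 837 and 855. Its effects were 0.89 and 0.83, and the 95% interval of the difference was -0.30 to 0.19. MIPEP, a mitochondrial peptidase, rose by 0.47 and 0.90, with a difference of 0.44 ± 0.074 (SE, adjusted p 0.000697). SERPINI1 (neuroserpin) rose by 0.57 and 0.55, and CITED2, which binds the coactivators CBP and p300, by 0.48 and 0.45. The 95% intervals of their differences were -0.31 to 0.25 and -0.18 to 0.12. MYLK, the myosin light chain kinase, rose by 0.44 and 0.41, DPP4, a cell surface dipeptidase, by 0.41 and 0.51, and PAPSS1, which makes the sulfate donor PAPS, by 0.36 and 0.36. Over the 22 genes raised by both, 2 had a difference past the threshold, those of TNFRSF19 and MIPEP.

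Genes lowered by both knockdowns were led by PLA1A, a phospholipase that acts on phosphatidylserine. In VCaP it read 2261, 2281 and 2462 in siControl and 1280.3, 1181 and 1164 in siERG. In LNCaP it read 61.3, 56.5 and 72.1 in shControl and 16.4, 21.9 and 33.1 in shETV1, close to the 16 added before the logarithm. It fell by 0.94 ± 0.059 (SE, adjusted p 1.37e-05) and 1.01 ± 0.13 (SE, adjusted p 0.000968), and the interval of the difference was -0.37 to 0.24. With 64 added in place of 16, the difference turned to 0.38 and passed the threshold, so whether its effects differ depends on that setting. TMEM45B, a transmembrane protein, read 3751, 3832 and 3716 in siControl and 2227, 2141 and 2112 in siERG in VCaP. In LNCaP TMEM45B read 356, 356 and 410.4 in shControl and 251, 235 and 227 in shETV1, falls of 0.80 and 0.62. ST6GALNAC1, a sialyltransferase of mucin glycans, fell by 0.60 and 0.97. ANXA1, a calcium-dependent phospholipid-binding protein, fell by 0.58 and 0.53, with an interval for the difference of -0.19 to 0.30. KLF4, a zinc finger transcription factor, read 1099, 1153 and 1002 in siControl and 597, 656 and 610.2 in siERG in VCaP. In LNCaP KLF4 read 427, 459 and 464 in shControl and 321, 283 and 341 in shETV1. It fell by 0.79 and 0.50, with an interval of 0.071 to 0.51 and an adjusted p of 0.0902 for the difference. SH3PXD2A, a scaffold of invadopodia, fell by 0.51 and 0.66, and STON1, an endocytic adaptor, by 0.48 and 0.48. VCX2 was also named here, but it belongs to a family of near-identical genes that one probe set may not separate. Of the 58 genes lowered by both, 18 had a difference past the threshold.

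Many androgen-induced genes stood lower after ETV1 loss than after ERG loss, each relative to its own control. Of 30 tested members of that list, 14 had a lower difference and 1 a higher one, against 5.4% and 4.16% of all genes, and the median difference was -0.33 against -0.003 over all genes. With the GAPDH ratio as a covariate 8 were lower. Percentages of all genes, here and in the lists below, belong to the analysis without such changes. Over all genes the GAPDH ratio gave 93 higher and 182 lower differences, and arrays centred on their medians gave 1189 and 416. List counts under those settings stand against these totals. shETV1 lowered 11 members and raised 0, against 3.19% and 1.34% of all genes, and siERG raised 6 and lowered 1, against 5.14% and 5.32%. KLK4, another kallikrein, fell by 0.56 after shETV1, and PMEPA1, an inhibitor of TGF-beta signalling, by 0.44. SLC45A3, a prostate-enriched membrane transporter, fell by 0.29. In these 3 genes the ERG effect did not pass the test, and the differences were -0.40, -0.37 and -0.32. LIFR, the receptor of leukaemia inhibitory factor, moved in opposite directions, by 0.29 after siERG and -0.27 after shETV1. Other members owed the difference to a rise after siERG, among them MAF, a transcription factor (0.45), HPGD, the enzyme that degrades prostaglandins (0.35), and ALDH1A3, which makes retinoic acid (0.34). FKBP5, a co-chaperone of steroid receptors, had a difference of -0.39 with neither single effect past the test. ORM1, a secreted acute-phase glycoprotein counted as lower, and STEAP4, a metalloreductase counted as higher, passed the signal filter in LNCaP only through their DHT arrays. With EtOH the LNCaP arrays of ORM1 read 5.75, 3.63 and 11.2 in shControl and 4.05, 5.31 and 8.91 in shETV1. Those of STEAP4 read 15.3, 11.9 and 18.6 and 14.8, 12.8 and 10.4, so no ETV1 effect can be read for either gene without androgen.

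Androgen-repressed genes showed no common direction. Of 14 tested, 5 had a higher and 2 a lower difference (3 and 0 with the GAPDH ratio as a covariate), and the median of -0.02 turned to 0.06 with arrays centred on their medians. BCHE, SLITRK3 and DDC led the higher ones. PRKD1, a protein kinase of the D family, had 0.38 and CAMK2N1, an inhibitor of CaM kinase II, 0.22. PEG3, an imprinted zinc finger gene, rose by 0.45 after siERG and had a difference of -0.40. UGT2B15, which conjugates androgens with glucuronic acid, had -0.57, and its probe sets can share sequence with UGT2B17. Of 20 genes of androgen metabolism, 1 was higher and 2 lower, against 4.16% and 5.4% of all genes, and with the GAPDH ratio as a covariate 0 were either. HSD17B11 had a difference of 0.36, and STS, the steroid sulfatase, fell by 0.36 after shETV1 and had -0.34. AKR1C1, a steroid reductase, fell after both knockdowns, by 0.68 and 0.46, and its probe sets can bind related AKR1C transcripts.

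Several luminal genes fell, some after each knockdown. Of 13 luminal genes, 5 had a lower and 2 a higher difference, shETV1 lowered 6 and raised 0, and siERG lowered 4 and raised 1. Over all genes 5.4% had a lower and 4.16% a higher difference, shETV1 lowered 3.19% and siERG lowered 5.32%. The luminal genes with a higher difference numbered 4 with arrays centred on their medians and 0 with the GAPDH ratio as a covariate. ACP3, the prostatic acid phosphatase, fell by 0.60 after shETV1 and had a difference of -0.57. KRT18, a keratin of simple epithelia, read 5408, 5488 and 5168 in siControl and 3535, 3699 and 3717 in siERG in VCaP. It fell by 0.55 ± 0.069 (SE, adjusted p 0.000872) after siERG, had an ETV1 effect of 0.011 and differed by 0.56, which missed the threshold with the GAPDH ratio as a covariate. Its partner KRT8 fell by 0.33 after siERG. Of 13 steroid receptors and lineage factors, 3 were higher and 2 lower, and with the GAPDH ratio as a covariate 1 and 1. NR3C1, the glucocorticoid receptor, read 259, 267 and 249 in siControl and 289, 298 and 305 in siERG in VCaP. In LNCaP NR3C1 read 64.4, 75.3 and 78.9 in shControl and 51.2, 40 and 37.9 in shETV1. It changed by 0.19 after siERG and -0.59 after shETV1. Its difference was -0.79 ± 0.10 (SE, adjusted p 6.35e-05). The coactivators NCOA1 and NCOA2 differed by 0.21 and -0.23, which were lost in 8 and 15 of 41 settings, both with only the 12 EtOH arrays.

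Most genes of cholesterol synthesis rose after ERG loss, and 1 of them had an ETV1 effect past the test. Of 18 tested, siERG raised 11 and lowered 0, against 5.14% and 5.32% of all genes, and shETV1 lowered 1 and raised 0, against 3.19% and 1.34%. The difference was lower in 10 and higher in 0, against 5.4% and 4.16% of all genes, with a median of -0.25 against -0.003 over all genes. With arrays centred on their medians 7 were lower (416 over all genes), and with the GAPDH ratio as a covariate 3 were (182 over all genes). SQLE, the squalene epoxidase, read 2629.9, 2735 and 2446 in siControl and 3539, 3817 and 3534 in siERG in VCaP. In LNCaP SQLE read 1512, 1503 and 1522 in shControl and 1442, 1387 and 1447 in shETV1. It rose by 0.48 ± 0.073 (SE, adjusted p 0.00261) after siERG, had an ETV1 effect of -0.085 and differed by -0.56 ± 0.082 (SE, adjusted p 0.000185). MSMO1, a sterol methyl oxidase, read 3681, 3825 and 3602 in siControl and 4743, 5177 and 4833 in siERG in VCaP. In LNCaP MSMO1 read 2770.0, 2873 and 2598 in shControl and 2338, 2307 and 2407 in shETV1, changes of 0.41 after siERG and -0.22 after shETV1 in opposite directions. It was the member that shETV1 lowered. NSDHL, a sterol dehydrogenase, differed by -0.51, STARD4, a cholesterol carrier, by -0.46, and IDI1, an isomerase of isoprenoid synthesis, by -0.46. HMGCS1, which makes HMG-CoA, rose by 0.33 after siERG and differed by -0.43. INSIG1, a sterol-regulated brake on the pathway, rose by 0.24 as well.

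Of 18 genes of fatty acid synthesis, 3 had a lower difference and 0 a higher one, against 5.4% and 4.16% of all genes, and the median was -0.13. With arrays centred on their medians or with the GAPDH ratio as a covariate, 1 was lower. ELOVL6, an elongase of saturated fatty acids, read 708, 764 and 687 in siControl and 937, 1084 and 1006 in siERG in VCaP, a rise of 0.48 ± 0.064 (SE, adjusted p 0.00131), and differed by -0.63 ± 0.096 (SE, adjusted p 0.000291). SCD, the stearoyl-CoA desaturase, differed by -0.26 and ELOVL5 by -0.21, and both missed the threshold with arrays centred on their medians. FASN, the fatty acid synthase, rose by 0.25 after shETV1, and its difference of 0.31 did not pass the test.

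MYC, the growth-regulating transcription factor, was lowered by ERG loss and had no ETV1 effect past the test. It read 7454, 7434 and 7309 in siControl and 4615, 3165 and 3892 in siERG in VCaP. In LNCaP MYC read 2182, 2589.6 and 2009 in shControl and 2342, 2281 and 2500.2 in shETV1. The VCaP groups lay apart, and the LNCaP groups overlapped. MYC fell by 0.94 ± 0.11 (SE, adjusted p 0.000568) after siERG, its ETV1 effect was 0.078 ± 0.084, and the difference was 1.02 ± 0.14 (SE, adjusted p 0.000138). Of 21 MYC and ribosome biogenesis genes, 4 had a higher difference and 0 a lower one, with a median of 0.13, against 4.16% and 5.4% of all genes. The higher ones numbered 7 with arrays centred on their medians, 2 with only the 12 EtOH arrays, and 1 with the GAPDH ratio as a covariate or without the probe sets that can bind several transcripts. FBL, the methyltransferase fibrillarin, differed by 0.48, and SRM, the spermidine synthase, by 0.27. NOP16 differed by 0.33, which was lost in 18 of 41 settings and was 0.022 at the lowest. Of 33 DNA replication genes, siERG lowered 6 and raised 0, shETV1 changed 0, and the difference was higher in 2, against 5.32% of all genes lowered by siERG and 4.16% with a higher difference. The higher ones numbered 6 with arrays centred on their medians and 0 with the GAPDH ratio as a covariate. The 6 that fell were MCM2, MCM3, MCM5, MCM6 and MCM7, subunits of the replicative helicase, and the primase PRIM1. MCM3 fell by 0.40 and differed by 0.52, and MCM2 fell by 0.42 and differed by 0.44. Both missed the threshold with the GAPDH ratio as a covariate. Of 30 mitosis genes, BIRC5 (survivin) alone had a difference past the threshold, -0.34, lost in 13 of 41 settings. The median of the list was -0.20, and 5.4% of all genes had a lower difference. The list's lower differences numbered 9 with array weights, where 918 of all genes were higher, 49.4% of the calls. They numbered 0 with arrays centred on their medians, where 416 of all genes were lower.

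Of 12 PEA3 subfamily and MAPK feedback genes, 3 had a lower difference and 0 a higher one, against 5.4% and 4.16% of all genes. ETV1 itself was 1 of the 3, and with the GAPDH ratio as a covariate 1 was lower. SPRY4, a feedback inhibitor of receptor tyrosine kinase signalling, read 146, 156 and 148 in shControl and 80.9, 46.8 and 59.5 in shETV1 in LNCaP. In VCaP SPRY4 read 112, 113 and 104 in siControl and 87.8, 102 and 84.9 in siERG. It fell by 1.11 ± 0.12 (SE, adjusted p 0.000375) after shETV1, and its difference was -0.88 ± 0.15 (SE, adjusted p 0.001). EGR1, an immediate early transcription factor, rose by 0.36 after siERG and differed by -0.49. Of 18 further ETS factors, 2 were higher (4.16% of all genes were), and with the GAPDH ratio as a covariate 0 were. SPDEF, the ETS factor of luminal prostate cells, read 628, 571 and 574 in siControl and 392, 426 and 401 in siERG in VCaP. In LNCaP SPDEF read 332, 366 and 347 in shControl and 283, 273 and 317 in shETV1. It fell after both knockdowns, by 0.52 and 0.25. Its difference of 0.27 was lost in 27 alternative settings. ELK4 fell by 0.35 after siERG, and ELK3 fell by 0.47 after shETV1.

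Genes known to mark ERG-positive tumours mostly fell after siERG, and part of them fell after shETV1 as well. Of 12 tested, siERG lowered 8 and raised 0, while shETV1 lowered 4 and raised 1. The difference was higher in 4 and lower in 1, with a median of 0.25. Over all genes siERG lowered 5.32% and shETV1 3.19%, and 4.16% had a higher and 5.4% a lower difference. Of the tumour markers, 7 were higher with 64 added before the logarithm, 6 higher and 0 lower with arrays centred on their medians, and 2 higher and 0 lower with the GAPDH ratio as a covariate. HLA-DMB and ITPR3, a calcium channel of the endoplasmic reticulum, fell mainly after siERG. ITPR3 differed by 0.60, and by -0.23 with the probe sets left out that can bind several transcripts. ZNF385B, a zinc finger protein, changed by -0.42 after siERG and 0.46 after shETV1. HDAC1, a histone deacetylase, fell by 0.34 after siERG and differed by 0.39. PLA1A and PLA2G7, which hydrolyses platelet-activating factor, fell after both, PLA2G7 by 0.52 and 0.36. GHR, the growth hormone receptor, was the lower one at -0.32.

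Genes of epithelial-mesenchymal transition and of invasion moved in both directions. Of 17 in the first list, 2 had a higher and 3 a lower difference, against 4.16% and 5.4% of all genes. FN1, the matrix protein fibronectin, read 1278, 1285 and 1217 in siControl and 1518, 1551 and 1564 in siERG in VCaP. In LNCaP FN1 read 2159, 2153 and 2108 in shControl and 1568, 1544 and 1536 in shETV1. It changed by 0.29 after siERG and -0.46 after shETV1, and its difference was -0.75 ± 0.073 (SE, adjusted p 1.88e-06). OCLN, the tight junction protein occludin, changed the other way, by -0.29 after siERG and 0.19 after shETV1. SNAI2, a repressor of epithelial genes, read 55.7, 57.2 and 70.8 in siControl and 119.8, 144 and 135 in siERG in VCaP. In LNCaP SNAI2 read 15.1, 23.2 and 18.4 in shControl and 11.7, 18.3 and 15.3 in shETV1, where the groups overlapped. Its difference was -1.12 ± 0.15 (SE, adjusted p 5.67e-05), from a rise of 0.95 after siERG, and it passed the filter in LNCaP only through its DHT arrays. VIM, the intermediate filament vimentin, fell by 0.40 after shETV1, and its difference of -0.35 did not pass the test. Of 18 invasion and proteolysis genes, 1 was higher and 3 lower, and with the GAPDH ratio as a covariate 0 and 1. ADAMTS1, a secreted metalloprotease, read 3731, 3970.4 and 3556 in siControl and 4861, 5292 and 4803 in siERG in VCaP and differed by -0.57 ± 0.094 (SE, adjusted p 0.000537). CXCR4, a chemokine receptor, differed by -1.19 ± 0.30 (SE) on intensities of 13 to 76, and it too passed the LNCaP filter only through DHT arrays. HPN, the serine protease hepsin, fell by 0.41 after siERG and was the higher one at 0.35.

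Of 20 p53 target genes, GDF15, FAS and BAX had a higher difference, 3 genes, and 0 had a lower one, against 4.16% and 5.4% of all genes. The count of higher ones was 5 with arrays centred on their medians, 1 with the GAPDH ratio as a covariate and 0 without the probe sets that can bind several transcripts. FAS, a death receptor, read 965, 1023 and 1010.2 in siControl and 749, 718 and 716 in siERG in VCaP and differed by 0.56 ± 0.094 (SE, adjusted p 0.000645). GDF15, a secreted stress factor, differed by 0.84 on its brightest probe set and by -0.83 on another, dimmer one. Of 26 interferon response genes, IFI35 alone differed, by -0.60, and of 25 genes of the unfolded protein response, DNAJB9 alone did, by -0.37, a value lost in 30 alternative settings. Of 22 glycolysis genes, PFKM, a phosphofructokinase, differed by 0.42 and LDHB, a lactate dehydrogenase subunit, by 0.20, which was lost in 27 of 40 settings. These 2 stand against 4.16% of all genes, and the count was 5 with arrays centred on their medians and 0 with the GAPDH ratio as a covariate. Of 3 basal epithelial genes tested 0 differed. Of 4 neuroendocrine genes DDC did, and of 6 fibroblast, endothelial and leukocyte genes PECAM1 did, at intensities of 33 to 59 (0.58, lost in 25 settings).

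**Figure D4:**
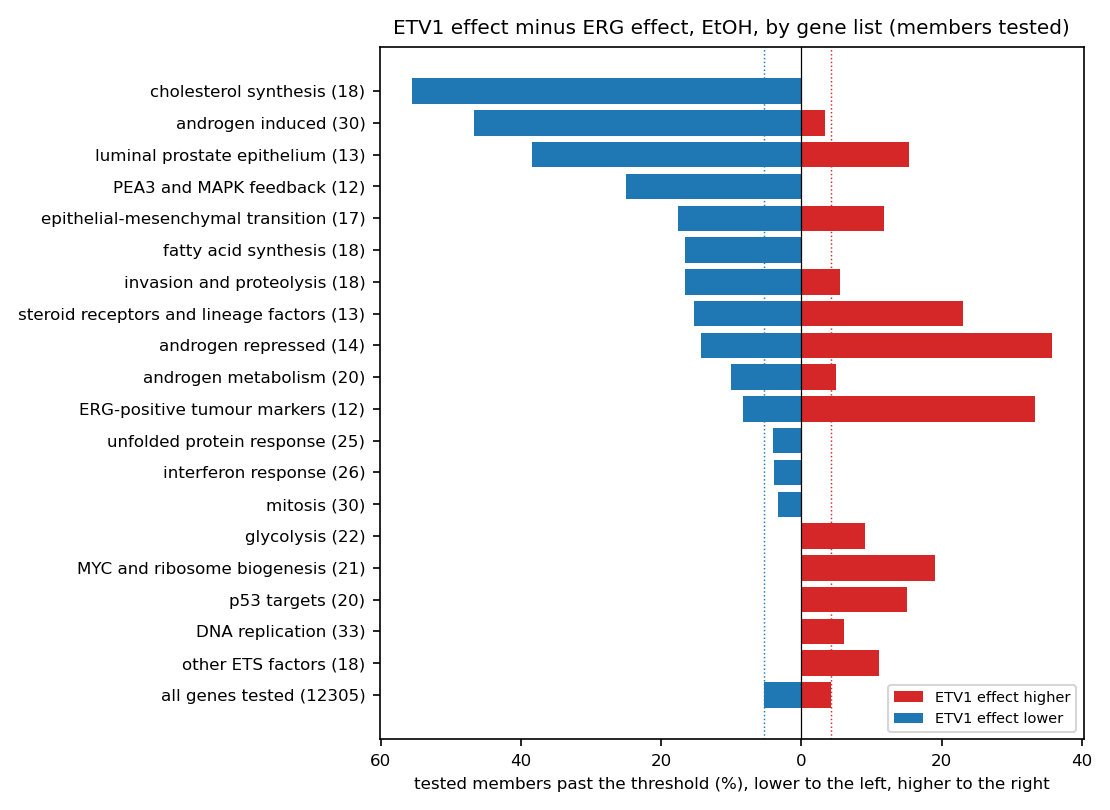
Bars give the percentage of tested members with a higher (red, right) or lower (blue, left) difference in each gene list with at least 10 members tested, with the number tested in brackets, and dotted lines mark the shares over all 12305 genes. Cholesterol synthesis (10 of 18 lower) and androgen-induced genes (14 of 30 lower) have the longest blue bars, and some lists share members.

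The same difference was measured in the 12 arrays given DHT, which share no array with the EtOH contrast. There the test called 923 genes (7.5%), 527 higher (4.28%) and 396 lower (3.22%). With DHT, siERG changed 7.88% of genes (3.46% upwards and 4.42% downwards) and shETV1 5.67% (2.98% upwards and 2.69% downwards). Of the 1176 genes called with EtOH, 1056 had the same sign with DHT (89.8%), and 470 were called again in that direction, which is 39.97% of the EtOH calls and 50.9% of the DHT calls. The share of all genes tested with the same sign in both was not counted. For 6 genes the calls were opposite. Across genes the correlation of the differences was 0.46. All 15 highest genes kept their sign and 13 were called again with DHT, while 13 of the 15 lowest kept it and 6 were called again. S100P differed by 1.88 ± 0.13 (SE, adjusted p 3.08e-08) with DHT and BCHE by 2.03 ± 0.11 (SE, adjusted p 1.88e-09). RIPOR2 differed by -1.08 ± 0.19 (SE, adjusted p 0.00088) and PCGEM1 by -1.27 ± 0.11 (SE, adjusted p 2.15e-07). Of the 53 genes raised by siERG and lowered by shETV1, 43 kept both signs with DHT and 18 were called in both lines again. Of the 14 of the reverse kind, 14 kept both signs and 8 were called again. Of the genes that moved alike, 19 of 22 raised and 55 of 58 lowered kept both signs.

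The androgen changed the difference itself in 48 genes (0.39%), 35 upwards (0.284%) and 13 downwards (0.106%), and 31 of them had a difference with EtOH. With the GAPDH ratio as a covariate the count was 1, and leaving out single arrays gave 21 to 91. KLK2 differed by -1.77 with EtOH and by -0.29 with DHT, a change of 1.49 ± 0.18 (SE, adjusted p 0.000592). In LNCaP given DHT it read 4806, 4589.9 and 4761 in shControl and 3818, 3473 and 3673 in shETV1. KLK3 read 10707, 10518 and 10951 in shControl and 8148, 7321 and 7520.4 in shETV1 there, a fall of 0.49 ± 0.073 (SE, adjusted p 0.00357) after shETV1, and its difference changed by 0.87 ± 0.14 (SE, adjusted p 0.00552). The ETV1 effect on both kallikreins was thus smaller on the log2 scale where DHT had raised their signal. BRDT, which DHT lowered in the controls of both lines, differed by 0.047 with DHT, a change of 1.87 ± 0.28 (SE, adjusted p 0.00378). With DHT the VCaP arrays of BRDT read 37.1, 32.2 and 20.7 in siControl and 36.4, 18.5 and 23 in siERG. All lay below the VCaP array medians of 47.57 to 53.25, so no ERG effect on BRDT can be read with DHT.

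SOX9, MYC, EPAS1 and KRT18 lost most of their higher difference with DHT. SOX9 read 728, 823 and 840.2 in VCaP siControl with DHT and 551, 563 and 627 in siERG. It fell there by 0.45 ± 0.069 (SE, adjusted p 0.00292) after siERG, and in LNCaP it fell by 0.44 ± 0.093 (SE, adjusted p 0.023) after shETV1, so its difference was 0.011. MYC read 1413, 1623 and 1439.8 in VCaP siControl with DHT and 1528, 1615 and 1538 in siERG, and these groups overlapped. DHT had lowered it by 2.30 in siControl, and its ERG effect there was 0.066, which did not pass the test. EPAS1 differed by 0.33 with DHT and KRT18 by -0.047. FN1 and NAP1L3, which were lower with EtOH, moved towards 0, to -0.16 and -0.46. DHT changes each of these genes in 1 or both controls, and the 2 lines responded to it by different amounts, as MYC shows with -2.30 in VCaP siControl and 0.074 in LNCaP shControl.

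**Figure D5:**
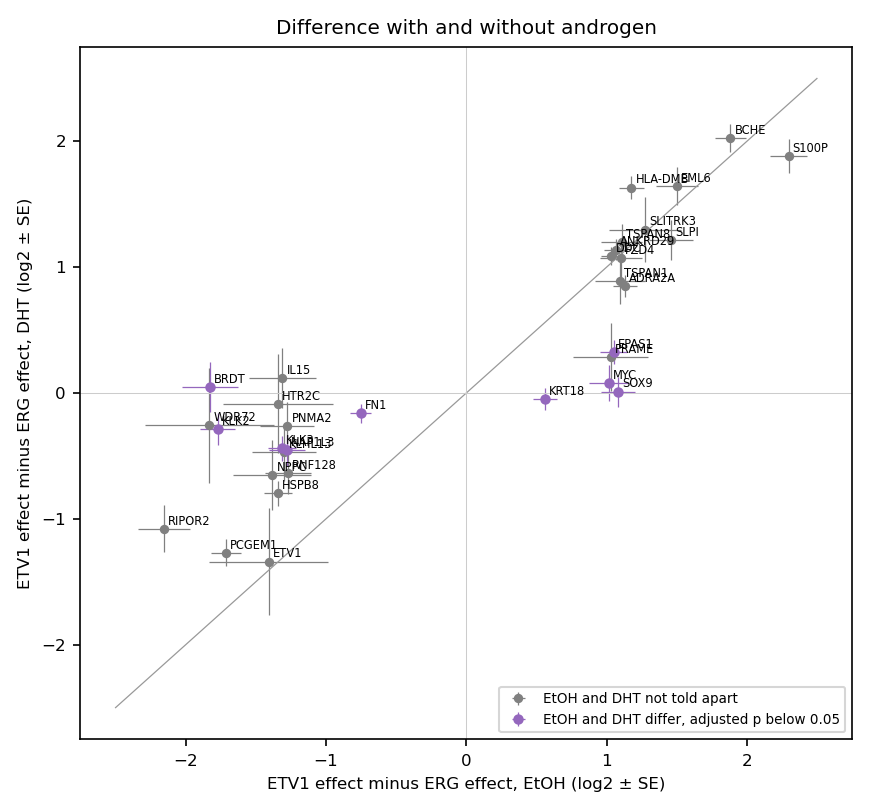
Each point is 1 of 33 named genes, with the ETV1 effect minus the ERG effect in EtOH on the horizontal axis and in DHT on the vertical axis, in log2 units with standard errors. Purple marks 9 genes whose difference itself changed between hormone conditions, among them KLK2, BRDT and SOX9, and the line marks equal differences.

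Genes that respond to androgen in one line moved in both directions after loss of the other line's factor. Of 253 genes raised by at least 1 log2 unit by DHT in LNCaP shControl, siERG in VCaP with EtOH raised 59 and lowered 29, with a median effect of 0.08 against 0.008 over all genes. Over all genes siERG raised 5.14% and lowered 5.32%, and shETV1 raised 1.34% and lowered 3.19%. Of 196 genes that DHT lowered there, siERG raised 15 and lowered 26. Of 115 genes that DHT raised in VCaP siControl, shETV1 in LNCaP with EtOH raised 6 and lowered 13, with a median of -0.004. Of 203 that DHT lowered, it raised 15 and lowered 29. No arrays are shared between these responses and the effects set beside them.

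Genes that passed the signal filter in 1 line only have no difference and are given by their own effect. The filter asks for 3 of 12 arrays, so a gene could pass through the 1 group where it was high. GLDN averaged 47.1 in LNCaP shControl with EtOH and 21.7 in shETV1, against LNCaP array medians of 42.7 to 44.8. A gene left out in a line could also lie close to its cutoff. In VCaP 535 genes were of this kind, and siERG changed 129 of them (24.1%), 43 upwards (8.04%) and 86 downwards (16.1%). In LNCaP there were 518, of which shETV1 changed 15 (2.9%), 6 upwards (1.16%) and 9 downwards (1.74%). Over the 12305 genes tested in both lines, siERG changed 10.5% (5.14% upwards and 5.32% downwards) and shETV1 4.53% (1.34% upwards and 3.19% downwards). The falls in VCaP were led by LYZ (lysozyme) at -1.22, TGM4, the prostate transglutaminase, at -1.21, INSM1, a neuroendocrine transcription factor, at -1.18, FAM3D at -1.16 and the carbonic anhydrase CA4 at -1.15. INSM1 averaged 364 in siControl and 153 in siERG. The rises were led by SCN3B, a sodium channel subunit, at 0.92. In LNCaP the potassium channel KCNU1 rose by 1.01, from a mean of 47.5 to 111, and TYRP1, a melanin synthesis protein, fell by 0.81, from 90.8 to 44.9. KCNU1 averaged 47.4 in VCaP siControl with EtOH, close to the VCaP array medians of 47.57 to 53.25.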

How the data were processed

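The authors deposited 1 processed intensity per probe set for 24 Affymetrix HG-U133 Plus 2.0 arrays, and these values were used as deposited. The computation and scaling behind them, not given in the sources used here, may affect every value. Values were converted to log2(intensity + 16). A gene was represented by its brightest probe set over all arrays, and 1801 probe sets naming several genes were left out. A gene was tested in a line if its signal exceeded the median of the array in 3 or more of that line's 12 arrays, that is 12840 genes for VCaP and 12823 for LNCaP, with 12305 shared.

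limma 3.58.1 in R 4.3.3 (lmFit, eBayes) gave all effects, two-sided, with Benjamini-Hochberg adjustment over the 12305 genes. For ERG and the genes tested in 1 line only, the fit and the adjustment took all 12840 genes of VCaP or 12823 of LNCaP. One fit of all 24 arrays in 8 groups gave the difference between the effects, with EtOH, with DHT and between them, and 1 fit of 12 arrays per line gave each effect. "Rose", "fell" and "changed" mean an adjusted p below 0.05, and errors are limma's standard errors with n = 3 arrays per group. The fit was tested on simulated data.

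The members and the 22 gene lists were chosen with earlier results of these data known. Named genes are the 15 highest and 15 lowest differences, for each pattern that both knockdowns changed the 10 genes whose smaller effect was largest, up to 3 of each list in each direction, up to 5 genes of 1 line in each direction, and ERG, ETV1, KLK3, TMPRSS2 and MYC. Further list members were named after their values were seen. Of 491 list genes, 37 had no usable probe set and were not analysed here. Alternatives covered the value added, probe sets, filter, scaling, variance, arrays fitted, replicate letters, RNA quality ratios, thresholds and each array left out. Replicate letters did not pair the arrays. Promoters are RefSeq's.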

Additional observations from a re-analysis of the deposited data

Results flagged for a closer look

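The difference between the ETV1 effect and the ERG effect itself differed between DHT and EtOH, by limma's test of that change, in 9 of the named genes. The kallikreins moved upwards, KLK2 by 1.49 and KLK3 by 0.87 log2 units. KLK2 was lost in 1 of 38 alternative settings, the mean of its probe sets, and KLK3 in 3. BRDT moved by 1.87 and was lost in 1 of 39, the GAPDH ratio as a covariate, but its VCaP arrays with DHT lay below the array medians. SOX9 moved by -1.07 and was lost in 2. FN1 moved by 0.59 and EPAS1 by -0.72, each lost in 7. KRT18 moved by -0.61 and was lost in 23, MYC moved by -0.94 and was lost in 29, and NAP1L3 moved by 0.82 and was lost in 33. The last 3 are therefore the least settled of these changes.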

How the results depend on the processing

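The counts depended strongly on the processing, and single differences varied in how far they did. Of the 30 highest and lowest differences, which were chosen for their size in these data, 20 stayed past the threshold in every alternative. ETV1, 1 of those 30, was lost in 21 of 41 settings. Outside the 30, DNAJB9 was lost in 30 of 41. Genes with a higher difference numbered 1189 with arrays centred on their median, 918 with array weights, 93 with the GAPDH ratio as a covariate, 227 at an adjusted p below 0.01 and 17 at a difference of at least 1. Genes with a lower difference numbered 416 with centring, 182 with the GAPDH ratio, 314 at 0.01 and 31 at a difference of at least 1. siERG changed 2047 genes with array weights, 209 with the GAPDH ratio, 517 at 0.01 and 14 at a change of at least 1. shETV1 changed 356 with the mean of probe sets, 275 with no filter, 333 with only the 12 EtOH arrays, 148 with the GAPDH ratio, 215 at 0.01 and 12 at a change of at least 1. Opposite genes numbered 43 with the mean of probe sets, 17 with no filter, 44 with centring, 111 with array weights, 38 with the 12 EtOH arrays, 39 with the replicate block, 6 with the GAPDH ratio, 11 at 0.01 and 0 at a change of at least 1 in both lines. Genes moved alike numbered 47 with the mean of probe sets, 36 with no filter, 127 with array weights, 53 with the 12 EtOH arrays, 52 with the replicate block, 10 with the GAPDH ratio, 23 at 0.01 and 0 at a change of at least 1. With DHT the differences numbered 1500 with array weights, 401 with the GAPDH ratio, 488 at 0.01 and 46 at a difference of at least 1. Differences that themselves changed with DHT numbered 25 with the mean of probe sets, 18 without the probe sets that can bind several transcripts, 21 with no filter, 116 with array weights, 28 with the replicate block, 1 with the GAPDH ratio, 20 with the ACTB ratio, 13 at 0.01 and 7 at a change of at least 1. The cause of these shifts was not tested, except that stricter thresholds call fewer genes by construction.

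Leaving out each of the 24 arrays in turn gave 344 to 727 higher differences, 486 to 784 lower ones, 673 to 1792 genes changed by siERG, 307 to 577 by shETV1, 30 to 78 opposite genes, 48 to 93 alike, 711 to 1156 differences with DHT and 21 to 91 changes with DHT. No array moved the counts of higher or lower differences by more than 1.5 times. The opposite count moved that far without VCaP siControl A (42) or C (39), siERG B (33) or C (41), LNCaP shControl A (30), or shETV1 A (39), B (40) or C (35), all with EtOH. The alike count did so without LNCaP shControl A (48) or shETV1 A (48). The siERG count did so without siControl A (749), B (758) or C (811), or siERG B (673) or C (738), and the shETV1 count without shControl A (307), or shETV1 A (321), B (327) or C (347). The count of changes with DHT did so without the EtOH arrays siERG C (27), shControl A (31), shETV1 B (22) or C (27), or the DHT arrays siERG C (91), shControl A (29), shETV1 A (28) or B (21).

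With the replicate block, the higher differences numbered 415 and the lower 565, and same-letter arrays correlated at -0.11 to 0.12 over their deviations from group means, so the letters are no pairing. With the mean of probe sets, the difference of GDF15 turned to -0.055, its ERG effect to 0.058 and the ETV1 effect of DDC to -0.040. Without the probe sets that can bind several transcripts, ELK4 turned to -0.076, ITPR3 to -0.23 (ERG effect 0.078) and HSPB8 to 0.088 with EtOH and 0.29 with DHT (ERG effect -0.060, ETV1 effect 0.028). With 64 added, PLA1A turned to 0.38. In simulated arrays with the spreads of these data and 3 arrays a group, 62 of 100 true differences of 0.5 log2 units were called. Of true differences of 1 log2 unit, 90 of 100 were called. Each was split evenly between the lines, and 8 unchanged genes were called. Only these genes of 12305 differed, while 1176 were called in the data, so the share recovered may differ there. Smaller differences were not simulated, and a gene not called is not shown to respond alike.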
